A study of Mus musculus with 4 samples.

Results

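Among the lineage-traced epithelial cells of the chronically injured mouse pancreas, 3983 cells carried the authors' mucin/ductal label, and 516 of them passed a threshold on transcripts of pit-type gastric genes. A cell was included when it held at least 1 UMI (unique molecular identifier, 1 captured RNA molecule) of Muc5ac, or at least 3 UMIs summed over Tff1, Gkn1 and Gkn2. These 516 cells were 12.96% of the mucin/ductal cells, among 13362 cells with a deposited type and 21140 cells in the merged table. The other 3467 mucin/ductal cells served as the comparison. All 4 mice carried Ptf1aCre-ERTM;ROSAYFP/+ on a background backcrossed to CD-1 and were 10 weeks old when injury began. Tamoxifen was given by gavage before injury, so that the Ptf1a-driven inducible Cre switched on EYFP in acinar cells, and EYFP+ cells were sorted for the libraries. Caerulein, an agonist that overstimulates acinar cells, was injected for 2 weeks in 2 mice and for 4 weeks in 2 other mice, and no uninjured mice were analysed here. The labels list 1 library per mouse, and each time has 2 animals. For members against other cells and for the interaction, p-values measure how alike the differences within a mouse were, and for time they measure the spread between mice.

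Pit cells, also called foveolar cells, line the surface of the stomach and are known for a gel-forming mucin, Muc5ac, that is packed together with the small trefoil peptide Tff1. Gastrokines 1 and 2 are secreted by the same cells, whereas Muc6, Tff2 and, in the mouse, Gkn3 belong to the mucous neck cells deeper in the gland. In metaplasia after injury, acinar cells of the pancreas can take up a gastric mucous programme in which neck-type genes are prominent.

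The label was checked against its markers. Tff1 supplied 96.9% of all UMIs of the 4 genes in the members, with 7791 UMIs against 195 of Gkn1, 46 of Gkn2 and 10 of Muc5ac, in counts not corrected for transcript length. Muc5ac was found in 9 of the 516 cells and reached at most 2 UMIs in a cell. Of the members, 507 qualified through the trefoil and gastrokine sum alone, 8 through Muc5ac alone and 1 through both. At least 3 Tff1 UMIs were held by 478 members, any Gkn1 by 74 and any Gkn2 by 16. Tff1 was held by 499 of 516 members, but also, at 1 or 2 UMIs, by some of the other cells, so that 26.5% of all mucin/ductal cells held a Tff1 UMI. Since the mucin that defines pit cells was almost absent, the 516 cells are not called pit cells here but members, that is, cells that met the rule.

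The genes behind the choice lie in gene clusters on the mouse reference (RefSeq, GRCm38, the mm10 assembly). Tff1 lies on chromosome 17 at 31161395-31165060, beside Tff2 at 31141062-31144282 and Tff3 at 31125306-31129611. Gkn1, Gkn2 and Gkn3 adjoin each other on chromosome 6, at 87345653-87350915, 87373365-87379494 and 87383319-87388935, and Muc5ac lies on chromosome 7 at 141788958-141819227. The 150 bases directly upstream of the starts of the 3 gastrokine genes are shown because Gkn1 and Gkn2 chose cells, whereas Gkn3, their neighbour, was abundant in members and other cells alike. Of the genes that chose cells, Tff1 and Muc5ac had no entry in the promoter table used. Capitals mark matches to GATAA, the core of the GATA-factor motif, and to the TATA-box core TATAAA, each searched on both strands. Among the 3 genes, 1 match of Gkn3 lies on the reverse strand.
Gkn1, chr6:87350916-87351065, minus strand: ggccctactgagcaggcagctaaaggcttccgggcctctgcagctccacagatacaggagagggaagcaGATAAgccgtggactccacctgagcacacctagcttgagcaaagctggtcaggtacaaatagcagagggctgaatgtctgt
Gkn2, chr6:87373215-87373364, plus strand: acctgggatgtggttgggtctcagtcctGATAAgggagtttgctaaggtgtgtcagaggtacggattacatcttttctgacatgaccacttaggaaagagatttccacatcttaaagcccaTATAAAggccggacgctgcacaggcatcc
Gkn3, chr6:87388936-87389085, minus strand: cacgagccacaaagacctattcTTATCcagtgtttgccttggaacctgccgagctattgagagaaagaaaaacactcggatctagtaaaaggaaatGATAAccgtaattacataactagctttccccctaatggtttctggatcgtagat
GATAA occurred once upstream of Gkn1 and of Gkn2, and at 2 places upstream of Gkn3. TATAAA occurred only upstream of Gkn2, from base 29 to base 24 before the start. No marked match overlapped another. Of 32851 upstream windows of 150 bases in the table, 13.3% held GATAA and 7.57% held TATAAA, so neither match is rare. These are matches of letters, and no factor binding was measured.

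The members were unevenly spread over the mice. They made up 21 of 371 mucin/ductal cells in 2-week mouse 1 (5.66%, 95% Clopper-Pearson interval 3.54 to 8.52), 334 of 1388 in 2-week mouse 2 (24.1%, 21.8 to 26.4), 47 of 961 in 4-week mouse 1 (4.89%, 3.62 to 6.45) and 114 of 1263 in 4-week mouse 2 (9.03%, 7.50 to 10.7). 2-week mouse 2 stood above the other mice and supplied 64.7% of all members. The mean share was 14.9% ± 13.0 (SD, n = 2) at 2 weeks and 6.96% ± 2.92 (SD, n = 2) at 4 weeks. The difference, 4 weeks minus 2 weeks, was -7.90 percentage points (two-sided exact permutation p = 0.667; 2 mice against 2 cannot go below 0.33), and without 2-week mouse 2 it turned to 1.30 points. With every cell thinned to 5000 UMIs, the shares were 2.45%, 7.95%, 1.10% and 3.31% in the same order of mice, and 2-week mouse 2 again stood highest. Intervals cover counting error only.

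Both of the authors' mucin/ductal clusters held members. Cluster 1 supplied 286 and cluster 2 supplied 230. 2-week mouse 2 stood highest within each, with 20.3% of its cluster 1 cells and 41.2% of its cluster 2 cells, against 1.75% to 8.17% and 5.81% to 9.69% in the other 3 mice. As a background, 1312 untyped cells with lymphocyte transcripts and no EYFP were examined. None met the rule, which allows a share of up to 0.281% (exact interval), at a median depth of 4043.5 UMIs against 17998 in the mucin/ductal cells. Tff1 itself stood at 1.97 CPM (UMIs of the gene scaled to a common total for the summed cells) in those lymphocyte-type cells and at 97.9 CPM in the mucin/ductal cells. By mouse it was 0.489, 4.74, 0 and 3.17 CPM in the lymphocyte-type cells of 2-week mice 1 and 2 and 4-week mice 1 and 2, against 69.7, 166, 23.6 and 57.1 CPM in the mucin/ductal cells, with 2-week mouse 2 highest in both.

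**Figure D1:**
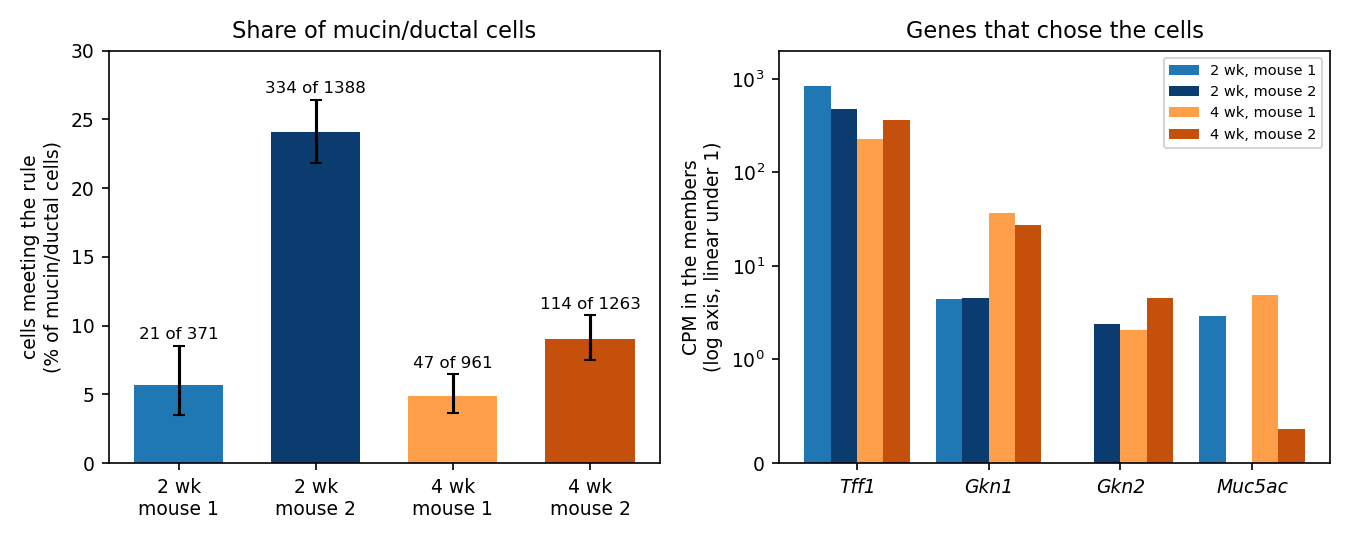
Left, cells that met the rule as a percentage of the mucin/ductal cells of each mouse, with exact 95% intervals and cell numbers. Right, CPM of the 4 genes that chose the cells, summed over the members of each mouse, on a log axis that is linear under 1. 2-week mouse 2 has the highest share, and Tff1 has the tallest bars in every mouse.

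The levels of the 4 genes in the members describe the choice and were not tested. Tff1 stood at 829 and 477 CPM in the 2-week members and at 227 and 364 CPM in the 4-week members, against 4.65 to 15.2 CPM in the other mucin/ductal cells. In 2-week mouse 1, 1 cell held 291 of the 565 Tff1 UMIs, and without it the members stood at 413 CPM, below 2-week mouse 2 and above both 4-week mice. Gkn1, a secreted gastrokine, stood at 4.40 and 4.54 CPM at 2 weeks and at 36.8 and 27.2 CPM at 4 weeks. Both 4-week mice were thus above both 2-week mice for Gkn1, and the reverse order held for Tff1. How many of all genes had no overlap between the times was not counted, so these orders are no evidence of a change with time. Among the other mucin/ductal cells Gkn1 was lower in every mouse and kept the same order of times, at 1.01 and 0.561 CPM against 2.24 and 1.98 CPM. Tff1 in those cells overlapped between the times, at 4.65 and 15.2 CPM at 2 weeks and 5.81 and 10.3 CPM at 4 weeks. Gkn2 had no UMI in the members of 2-week mouse 1 and stood at 2.40, 2.08 and 4.54 CPM in the other 3 mice. At the edge of the rule, 97 members held exactly 3 UMIs of the sum of Tff1, Gkn1 and Gkn2, and 192 cells held 2 UMIs over all 4 genes. Of that sum, 185 members held 10 or more and the highest held 291.

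Members were more deeply captured than the cells they were compared with. Their median UMIs per cell were 26461, 29919.5, 23674 and 20416 in 2-week mice 1 and 2 and 4-week mice 1 and 2, against 18777, 20518.5, 14952.5 and 15027 in the other cells. A rule of a minimum number of UMIs favours deep cells, so Tff2, Spink4, Areg and Isg15 are given below also for cells of 10000 to 40000 UMIs and for cells thinned to 5000 UMIs before the rule was applied. The 2-week mouse 1 fraction fell under 20 cells in the first setting, which left 3 mice, and the thinned setting left 2. EYFP, the lineage label, stood at 345 to 451 CPM in members and 363 to 452 CPM in the other cells. Over all cells 67 of 21068 barcodes were shared between libraries, and none was shared among the members. The members are too few among all cells for this to serve as a check.

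Whether genes outside the rule differed between members and other mucin/ductal cells was tested on UMIs summed per mouse and fraction, with mouse as a block. Of 12960 genes, 123 (0.949%) differed: 52 (0.401%) were higher and 71 (0.548%) were lower in the members at a Benjamini-Hochberg adjusted p under 0.05 in edgeR's quasi-likelihood test. Among called genes with a mean of at least 10 CPM in the higher fraction and 1 direction in every mouse, Areg, Cp, Tff2 and Spink4 had the largest rises, and Iigp1, Isg15 and Glipr1 had the largest falls. DESeq2 called 37 and 23. With the 2 fractions of a mouse treated as unrelated samples, 0 genes were called, with 152 at an unadjusted p under 0.05, so the calls rest on comparison within a mouse.

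Tff2, the neck-cell trefoil peptide and the chromosomal neighbour of Tff1, rose in the members of all 4 mice. It stood at 60180.5 CPM in members and 35134.9 CPM in other cells of 2-week mouse 1, at 21516 and 8562 CPM in 2-week mouse 2, at 102417 and 48824 CPM in 4-week mouse 1, and at 62959.7 and 32795 CPM in 4-week mouse 2. Within each mouse the members were higher, while the levels of the mice overlapped between the fractions, with 2-week mouse 2 lowest in both. Single cells held a large part of these sums: 13160 of the 41003 UMIs of members in 2-week mouse 1 and 23771 of 147498 in 4-week mouse 1. Without the latter cell the members of 4-week mouse 1 stood at 91520 CPM, still above 48824 CPM. The log2 fold change was 1.10 ± 0.09 (SE, edgeR adjusted p = 7.04e-10). In cells of 10000 to 40000 UMIs it was 1.32 but did not pass the threshold (edgeR adjusted p = 0.328). In thinned cells it was 1.63 and did not pass (edgeR adjusted p = 0.996), nor did it without 2-week mouse 1 (1.19, edgeR adjusted p = 0.0848). It passed in each author cluster taken alone, at 1.39 in cluster 1 (2 mice) and 0.75 in cluster 2 (3 mice).

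Spink4, a small secreted protein of goblet and other mucous cells, rose alongside. Its level was 685 CPM in members against 321 CPM in other cells of 2-week mouse 1, 824 against 454 CPM in 2-week mouse 2, 710 against 432 CPM in 4-week mouse 1, and 1444 against 591 CPM in 4-week mouse 2. Every member fraction lay above every fraction of other cells. The log2 fold change was 1.06 ± 0.07 (SE, edgeR adjusted p = 6.21e-09), with 493 of 516 members holding a UMI. It was 1.38 in cells of 10000 to 40000 UMIs and 1.24 in thinned cells, and both passed. It missed the threshold without 2-week mouse 1, at 1.04 (edgeR adjusted p = 0.110).

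Areg, which encodes the EGF receptor ligand amphiregulin, had the largest rise of the genes named by the rule on size. It stood at 10.3 CPM in members against 3.02 CPM in other cells of 2-week mouse 1, 19.8 against 6.33 CPM in 2-week mouse 2, 1.39 against 0.726 CPM in 4-week mouse 1, and 9.72 against 2.12 CPM in 4-week mouse 2. The log2 fold change was 1.81 ± 0.20 (SE, edgeR adjusted p = 8.45e-07). The signal came from few cells: 25 of 516 members held any Areg UMI, and 1 cell of 2-week mouse 2 held 116 of the 279 UMIs. Without that cell the members of 2-week mouse 2 stood at 10.3 CPM, still above 6.33 CPM. In 2-week mouse 1 all 7 Areg UMIs of the members lay in 1 cell. Areg passed in cells of 10000 to 40000 UMIs, at 1.44 (edgeR adjusted p = 0.000965), and in thinned cells, at 2.97 (edgeR adjusted p = 0.0475).

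Tff2, Spink4 and Areg were set against the number of UMIs of the 4 rule genes per cell. Grouping all mucin/ductal cells by the UMIs of Muc5ac, Tff1, Gkn1 and Gkn2, cells with 1 such UMI already exceeded cells with 0 in Tff2 and Spink4 in every mouse. The 8 members that qualified through Muc5ac alone fell in the groups of 1 or 2 UMIs. In 4-week mouse 2, for example, Spink4 stood at 545, 735, 842, 1033, 1558 and 1880.1 CPM in cells with 0, 1, 2, 3 to 4, 5 to 9 and 10 or more UMIs. Spink4 increased over every step in that mouse, in 4-week mouse 1 and in 2-week mouse 2, while 2-week mouse 1 had only 2 to 9 cells in a group above 1 UMI and followed no order. Tff2 was not graded in this way. From 2 to 3 to 4 UMIs it fell in 2-week mouse 1 (46729 to 17589 CPM), 2-week mouse 2 (14107 to 11666 CPM) and 4-week mouse 2 (61539 to 51624 CPM). In 4-week mouse 1 it rose there (62747 to 118289 CPM) but fell from 148725 to 69463 CPM in cells with 10 or more. Areg was at most 6.63 CPM in every group up to 4 UMIs and stood at 34.4 CPM in the cells of 2-week mouse 2 with 10 or more UMIs, 23.4 CPM in 2-week mouse 1 and 25.8 CPM in 4-week mouse 2. 4-week mouse 1 was the exception, at 2.5 CPM. Single cells carried these Areg values: 1 cell held 116 of 180 UMIs in 2-week mouse 2, all 7 in 2-week mouse 1 and 10 of 23 in 4-week mouse 2, and without these cells the levels were 12.4, 0 and 14.8 CPM. These values describe groups that the rule cuts through and carry no test, and depth moved with the groups: in 2-week mouse 2 the median was 19621 UMIs in cells with 0 and 32624.5 UMIs in those with 10 or more. Among cells of 10000 to 40000 UMIs, cells with 1 such UMI still exceeded cells with 0 in Spink4 in all 4 mice, but in Tff2 in 3, since 2-week mouse 1 went from 28563 to 25208 CPM. Spink4 then still increased over every step in 2-week mouse 2 and 4-week mouse 2, but not in 4-week mouse 1. Areg in cells with 10 or more UMIs stood at 28.1 CPM in 2-week mouse 2, 42.97 CPM in 2-week mouse 1, 3.26 CPM in 4-week mouse 1 and 8.57 CPM in 4-week mouse 2, so that the level of 4-week mouse 2 was well under that without the limit on depth.

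**Figure D2:**
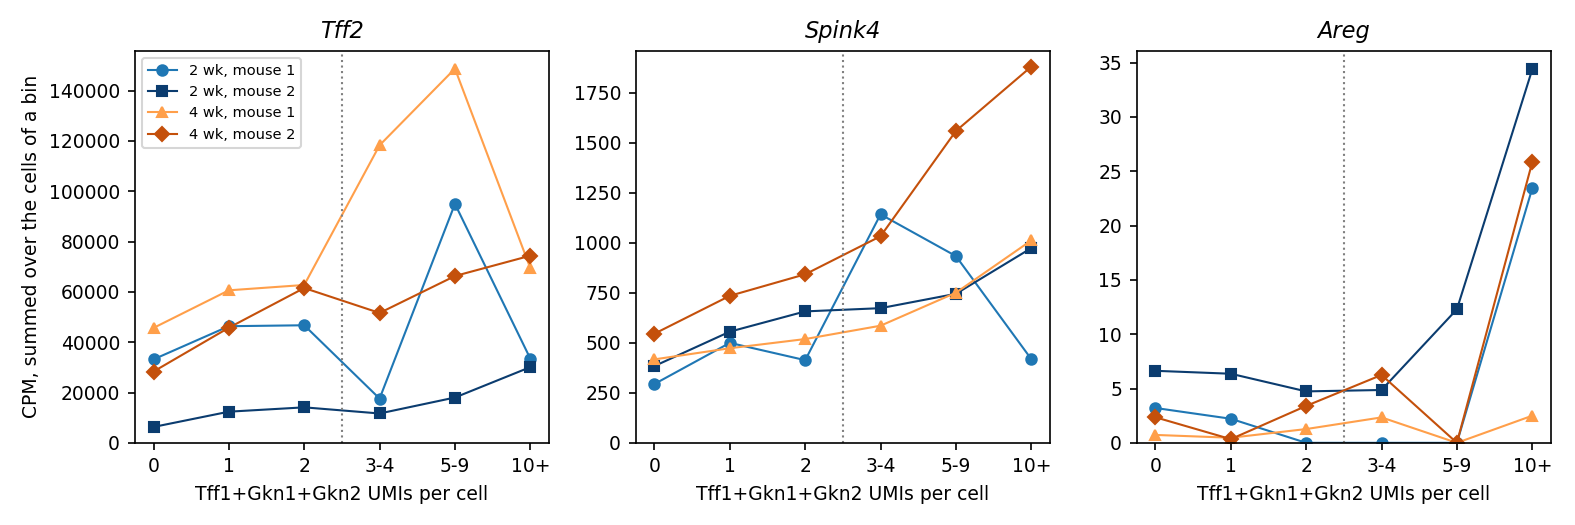
CPM of Tff2, Spink4 and Areg (vertical axes, linear, from 0) summed over mucin/ductal cells grouped by their UMIs of Muc5ac, Tff1, Gkn1 and Gkn2 (horizontal axis), with a line for each mouse. Muc5ac is counted though the axis does not name it. A dotted line marks the edge of the rule at 3 UMIs, and the 8 members chosen through Muc5ac alone lie left of it. Spink4 in 4-week mouse 2 goes from 545 to 1880.1 CPM, and Areg is above 20 CPM only in cells with 10 or more UMIs.

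A choice that used only some of the rule's genes left the others free to be tested. With cells chosen on at least 3 Tff1 UMIs alone, 68 of 13415 genes (0.507%) were called, in 3 mice because 2-week mouse 1 had under 20 such cells. Gkn1 stood at 3.30 CPM in the chosen cells against 1.19 CPM in the rest of 2-week mouse 2, at 12.4 against 4.55 CPM in 4-week mouse 1 and at 19.9 against 3.31 CPM in 4-week mouse 2. It rose in the chosen cells in each, with a log2 fold change of 2.02 ± 0.27 (SE, edgeR adjusted p = 0.000795). Gkn2 had a log2 fold change of 2.52 ± 0.64 and did not pass (edgeR adjusted p = 0.119). With cells chosen on any Gkn1 or Gkn2 UMI instead, 424 of 12586 genes (3.37%) were called, again without 2-week mouse 1, which had 10 such cells. Tff1 then stood at 616 against 139 CPM in 2-week mouse 2, 49.4 against 21.3 CPM in 4-week mouse 1 and 120.4 against 52.6 CPM in 4-week mouse 2. Tff1 was higher in each of these mice but did not pass the test (log2 fold change 1.77 ± 0.31, edgeR adjusted p = 0.246), whereas Tff2 did, at 1.28 ± 0.12 (edgeR adjusted p = 0.0142). Tff2 was higher in each fitted mouse. In 2-week mouse 1, outside the fit, it was lower in the chosen cells, at 30272 against 37431 CPM. Tff2 did not pass in cells chosen on Tff1 (1.20 ± 0.15, edgeR adjusted p = 0.438). Spink4 passed in cells chosen on Tff1 (1.11 ± 0.09, edgeR adjusted p = 0.00175) and not in those chosen on gastrokines (0.72 ± 0.14, edgeR adjusted p = 0.112). Areg did not pass in cells chosen on gastrokines (0.26 ± 0.39, edgeR adjusted p = 0.882), and it passed in those chosen on Tff1 (1.81 ± 0.22, edgeR adjusted p = 0.000499).

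Further genes rose under the same limits on level and direction. Cgref1, a calcium-binding secreted protein, stood at 27.9, 40.8, 125 and 53.5 CPM in members of 2-week mice 1 and 2 and 4-week mice 1 and 2, against 26.3, 20.2, 60.8 and 35.3 CPM in other cells (log2 fold change 0.91 ± 0.10). Bace2, a membrane protease, stood at 135, 98.4, 192 and 168 CPM against 97.5, 66.4, 134 and 140.0 CPM (0.52 ± 0.07). Bdh2, a short-chain dehydrogenase, stood at 13.2, 8.01, 20.8 and 20.1 CPM against 4.28, 4.53, 11.7 and 12.3 CPM (0.91 ± 0.16). The direction in every mouse was part of how these genes were chosen, and Cgref1 differed little in 2-week mouse 1. Ndnf (0.74), Mcf2l (0.68), Galnt5 (0.62), Lrg1 (0.60) and Cthrc1 (0.57) completed the 12 largest rises within these limits. Cp, which encodes ceruloplasmin, had a log2 fold change of 1.30 ± 0.19, but 34 members held it, 1 cell held 50 of its 199 UMIs, and the difference turned to -0.13 in cells of 10000 to 40000 UMIs.

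**Figure D3:**
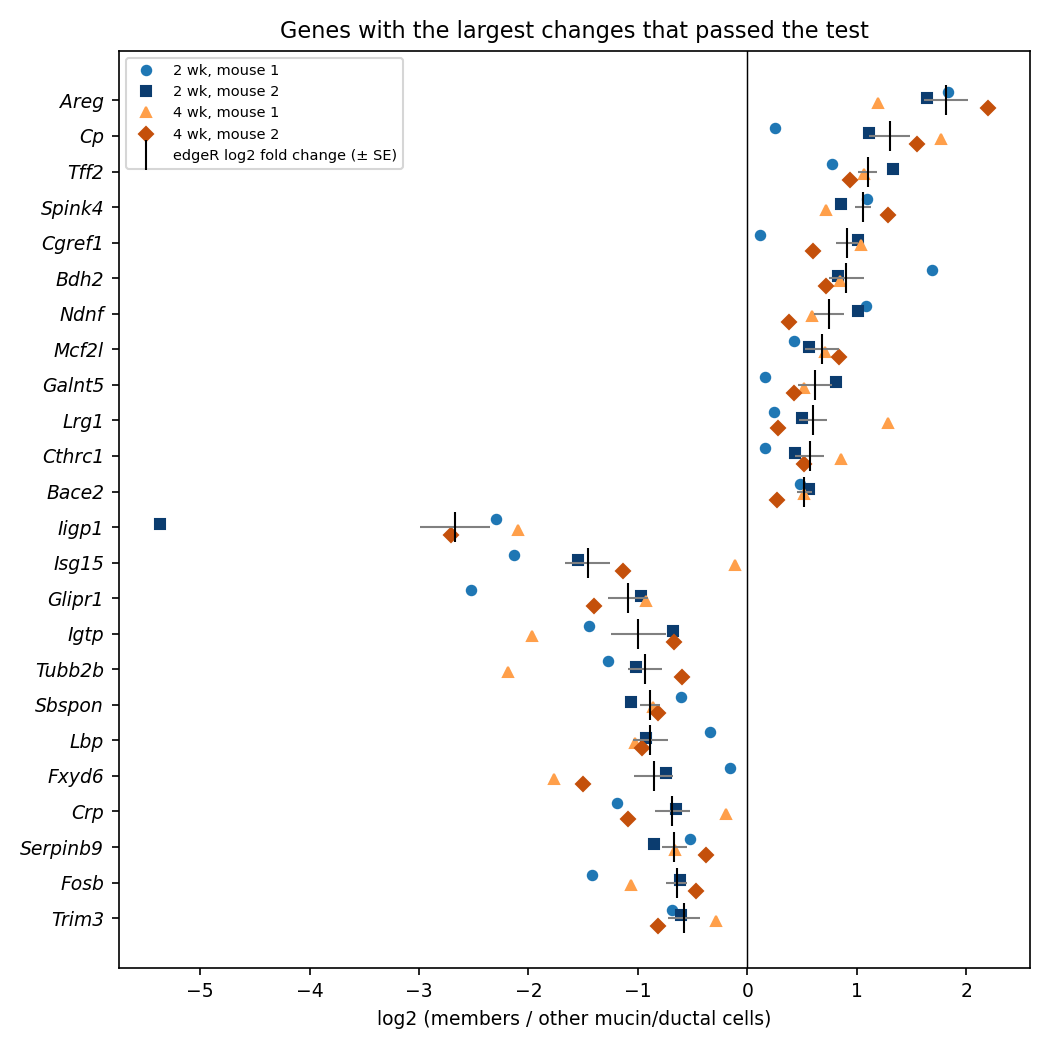
log2 ratio of members to other mucin/ductal cells for the 24 genes named by the rule on size, with a symbol for each mouse (0.5 UMI added to each sum) and a vertical tick with a bar for the edgeR log2 fold change ± SE. The symbols of the upper 12 genes lie above 0 and those of the lower 12 below 0, as the choice of genes required, and the 4 mice lie close together for Tff2 and Spink4 and far apart for Iigp1.

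Of the list of other pit-type gastric genes, 16 of the 21 in the files could be tested, and 2 rose while none fell. This list also holds Gkn3, named above as a neck-cell gene of the mouse, and Gkn3 is not in the neck-type list below. Their median log2 fold change was 0.21, against -0.01 for all genes tested. Anxa10, an annexin of gastric surface cells, stood at 69.0, 106.0, 134 and 191 CPM in members and 69.2, 68.5, 118 and 120.1 CPM in other cells (log2 fold change 0.53 ± 0.08, edgeR adjusted p = 0.000782). It was level in 2-week mouse 1 and higher in the other 3 mice. Ctse, the gastric protease cathepsin E, stood at 431, 427, 373 and 414 CPM against 354, 364, 361 and 302 CPM, a small rise in every mouse (0.33 ± 0.06, edgeR adjusted p = 0.00285) that did not pass without 4-week mouse 2 (0.27, edgeR adjusted p = 0.0554). Psca, a surface antigen of gastric epithelium, had a log2 fold change of 1.87 ± 0.86 and did not pass: members stood at 55.8 and 49.9 CPM in 2-week mouse 1 and 4-week mouse 2, but at 2.64 and 2.08 CPM in the other 2 mice. Cldn18, a stomach claudin, had 0.60 ± 0.22 and did not pass. The mucin Muc1 (-0.06), Vsig1 (0.11), Sult1c2 (0.09), the transcription factor Foxq1 (-0.03) and Gkn3 (0.03) did not pass either, each with an SE of 0.06 to 0.09.

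Of 12 neck-type genes tested, Tff2 rose, Glipr1 and Wfdc18 fell, and the other 9 did not pass. The list's median was 0.00, Tff2 included. Wfdc18, a whey-acidic-protein family member, stood at 724, 1553, 1199 and 1676 CPM in members and 1341, 1881, 1984 and 2109.7 CPM in other cells, lower in each mouse (log2 fold change -0.47 ± 0.08). Glipr1 stood at 0, 7.35, 4.17 and 5.83 CPM against 4.15, 14.5, 8.54 and 15.8 CPM (-1.09 ± 0.18). Muc6, the neck-cell mucin, had 0.15 ± 0.21, and Cd44 (0.01) and Aqp5 (0.01) had differences near 0. Muc6 was higher in the members of 3 mice and lower in 2-week mouse 1, at 3292 against 4887 CPM.

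Of 11 goblet-type genes tested, Spink4 and Creb3l1 rose and none fell, with a median of 0.31. Creb3l1, a membrane-bound transcription factor of secretory cells, stood at 320, 130, 282 and 193 CPM in members and 223, 109, 226 and 170 CPM in other cells, higher in every mouse (log2 fold change 0.38 ± 0.06). It did not rise within author cluster 1, where it stood at -0.03. Agr2, a folding factor for mucins, had 0.31 ± 0.08 (edgeR adjusted p = 0.07). Among 23 glycosylation genes, 3 rose and none fell, with a median of 0.17: Galnt5 (0.62), Galnt6 (0.38) and Galnt7 (0.33), which start O-linked glycan chains on mucins. Galnt6 was lower in the members of 2-week mouse 1 and higher in the other 3. None of 5 chief-type genes, 4 other mucins, 6 acinar transcription factors or 21 genes of the secretory pathway and protein folding passed the test. Their medians were 0.27, 0.02, 0.04 and 0.06. Of 15 ductal genes, Cftr, the chloride channel of duct cells, rose (0.58 ± 0.10), at 13.2, 62.0, 35.4 and 40.8 CPM against 13.8, 49.0, 21.4 and 22.2 CPM. It was level in 2-week mouse 1 and higher in the other 3 mice. Creb3l1 was also the single call among 25 gastric and ductal transcription factors, whose median was -0.01, and neither Gata4 (0.045) nor Gata6 (-0.05) passed.

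Digestive enzymes made in acinar cells went in both directions. Of 25 tested, 8 fell and 2 rose, with a median of -0.27. The summed level of the list was nevertheless higher in the members of each mouse. It was 31080, 16234, 32446 and 28974 CPM in members of 2-week mice 1 and 2 and 4-week mice 1 and 2. In other cells it was 30696, 13107, 30087 and 23289 CPM. Clps and Ctrb1 were the most abundant in members, at means of 10795 and 9992 CPM, and Ctrb1 (0.22 ± 0.31) did not pass. The trypsinogens Try4 (-0.39), Try5 (-0.44) and Prss2 (-0.38), the elastases Cela2a (-0.46) and Cela3b (-0.34), Ctrl (-0.36), Cpa1 (-0.37) and Pnlip (-0.27) fell by a similar amount and were lower in the members of all 4 mice. Trypsinogens are near-identical copies, so reads may have been split between them. Clps (0.42), the colipase, and Pnliprp2 (0.30) rose. In thinned cells Prss2, Ctrl and Cela3b stood at 0.22, 0.03 and 0.02 and Pnliprp2 at -0.41, with signs opposite to those above and no call. Reg1, an injury-induced secreted lectin, rose (0.48 ± 0.09), at 16022 CPM against 9351 CPM in 2-week mouse 1, with smaller rises in the other mice, and was the single call of 6 Reg genes.

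Some interferon-induced genes fell in the members. Iigp1, an interferon-induced GTPase, stood at 23.5 CPM in members against 119 CPM in other cells of 2-week mouse 1, and was at 0 in the members of the other 3 mice, where other cells stood at 1.68, 1.45 and 1.04 CPM (log2 fold change -2.67 ± 0.32, a fitted value that depends on how 0 counts are handled). Isg15, a ubiquitin-like modifier, stood at 35.2, 2.06, 8.33 and 7.46 CPM against 158, 6.13, 9.38 and 16.7 CPM (-1.46 ± 0.20). Iigp1 was held by 4 of 21 members and 65 of 350 other cells in 2-week mouse 1, a similar share, and in 2-week mouse 2 1 cell held 37 of the 42 UMIs of the other cells. Isg15 was found in a larger share of members than of other cells in 2-week mouse 2 (5.99% against 5.03%) and 4-week mouse 1 (12.8% against 7.55%), although its CPM was lower. For both genes 2-week mouse 1 had by far the highest levels in both fractions. Isg15 stood at -1.83 in cells of 10000 to 40000 UMIs, where it passed, at -1.79 in thinned cells and at -0.14 in author cluster 2, where it did not. Of 16 interferon and MHC genes, 4 fell and none rose, with a median of -0.52. Among those that fell were Isg15, Ifit3 (-2.57, with 5 UMIs in all members) and Bst2 (-0.49). The MHC class I genes H2-K1 (-0.04) and B2m (-0.08) did not pass. Bst2 stood at 0.07 within author cluster 2.

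Immediate early genes are known to rise when tissue is dissociated. Of 14 tested, 4 fell, 10 did not pass and none rose, with a median of -0.20: Fosb (-0.65), Atf3 (-0.53), Jun (-0.29) and Egr1 (-0.26). Fosb stood at 20.5, 67.1, 29.9 and 38.9 CPM in members and 57.0, 103, 63.1 and 54.1 CPM in other cells, lower in each mouse. Neither Fosb (-0.31) nor Jun (-0.21) passed in cells of 10000 to 40000 UMIs. Markers of immune and stromal cells were summed in the same fractions. Their summed level in 2-week mice 1 and 2 and 4-week mice 1 and 2 was 38.2, 144, 56.9 and 105 CPM in members and 69.2, 231, 52.6 and 120.3 CPM in other cells, and 3 of 13 tested fell: Ptprc, Col1a2 and Dcn, with a median of -1.66 over the list. Msln supplied the larger part of most sums, and without it they were 19.1, 31.6, 20.8 and 15.6 CPM in members and 33.7, 63.6, 26.5 and 40.3 CPM in other cells, lower in the members of all 4 mice. Ptprc was at 0 in the members of 2-week mouse 1 and 4-week mouse 1. The part of other cells' RNA in the lower interferon and immediate early genes was not tested. Further genes that fell in all 4 mice were Sbspon, a secreted matrix protein (-0.89 ± 0.09), Tubb2b (-0.94), Lbp (-0.89), Fxyd6 (-0.86), Crp (-0.69), Serpinb9 (-0.67), Trim3 (-0.58) and the GTPase Igtp (-0.996). Sbspon passed in each author cluster and in cells of 10000 to 40000 UMIs (-1.16).

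Few markers of neighbouring lineages passed the test. None of 8 tuft markers passed (median -0.21), and of 10 enteroendocrine markers Neurod1 rose (1.31 ± 0.31), with 112 UMIs in 27 members. Neurod1 passed in 5 of the 16 settings that tested it, the main one included. Of the 10 enteroendocrine markers, 9 lay above 0, but their summed level had no 1 direction over the mice. It was higher in members of 2-week mouse 2 (517 against 127 CPM) and 4-week mouse 2 (126 against 87.1 CPM). In 2-week mouse 1 (172 against 395 CPM) and 4-week mouse 1 (79.2 against 232 CPM) it was lower. Of 16 proliferation genes, Ube2c fell (-0.88), although 1 member held 58 of its 127 UMIs and it was higher in the members of 2-week mouse 1, at 7.34 against 4.65 CPM. Cxcl2 (-2.62, with 8 UMIs in all members) was the single call of 13 chemokine and cytokine genes, and Areg that of 8 genes of the EGF receptor family. The medians of these last 4 lists were 0.65, -0.14, -0.07 and 0.11.

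**Figure D4:**
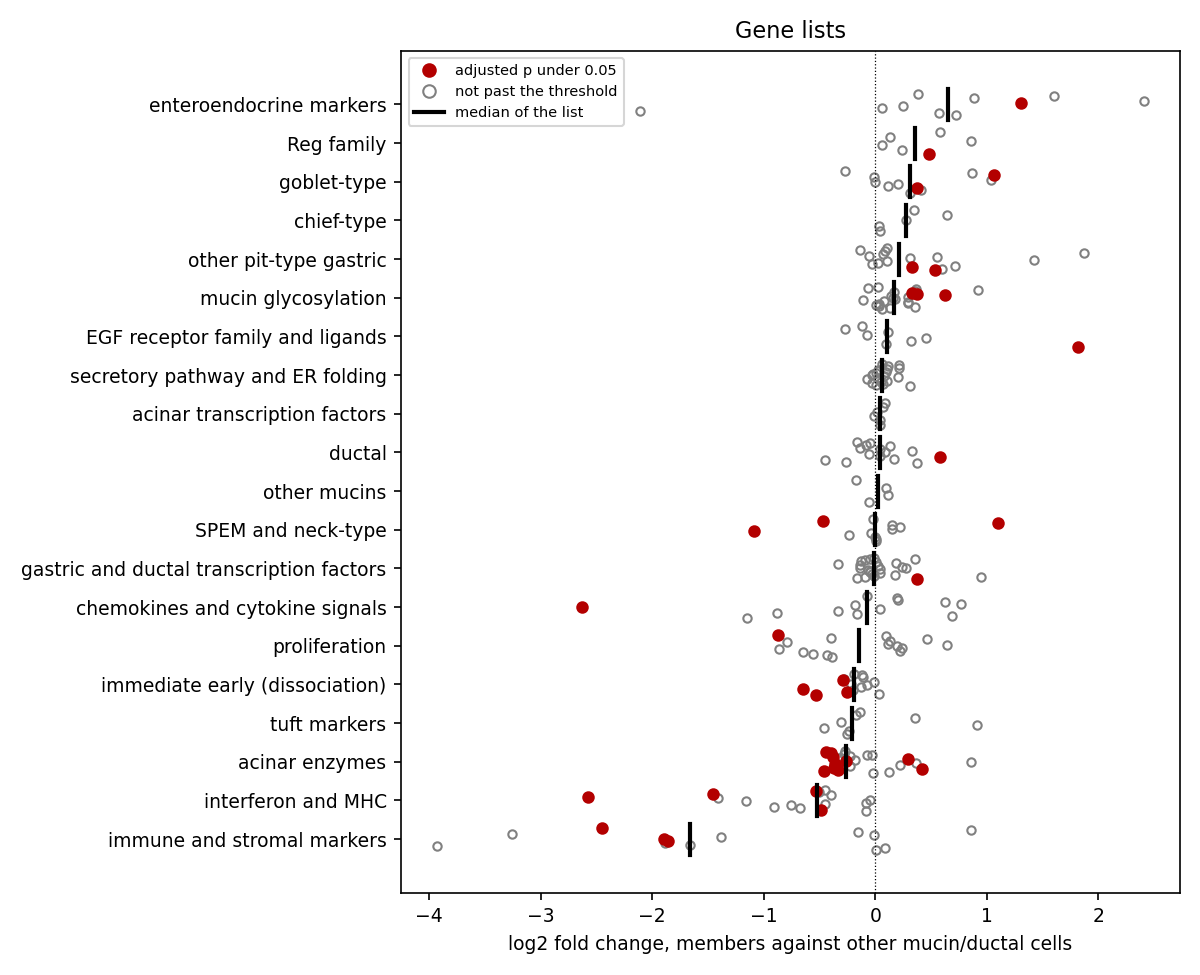
log2 fold change of members against other mucin/ductal cells (horizontal axis) for the tested genes of the 20 lists, with filled red circles for genes that passed the test, open grey circles for those that did not and a black bar for the median of each list. The interferon and immediate early lists have their called genes left of 0, and Tff2 (1.10), Spink4 (1.06) and Areg (1.81) lie farthest right in their lists, with Rep15 (1.03), which did not pass, close to Spink4.

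The members differed widely among themselves, as did the other mucin/ductal cells. The share of a cell's UMIs taken by the neck-cell genes Tff2, Gkn3 and Muc6 together ranged from 0.0051% to 53.9% in members and from 0.0084% to 58.1% in other cells. Its median in members was 6.44%, 1.81%, 13.98% and 8.85% in 2-week mice 1 and 2 and 4-week mice 1 and 2, against 7.33%, 1.04%, 7.81% and 6.02% in other cells, lower in 2-week mouse 1 and higher in the other 3 mice. Under 1% was found in 20.2% of other cells and in 20.7% of members, that is, in 107 of 516, 95 of them in 2-week mouse 2. In that mouse 28.4% of members and 48.0% of other cells were under 1%. These 107 cells held as much Tff1 (431 CPM) as the other 409 members (456 CPM). Their low Tff2 and Muc6 restate how they were picked. They stood higher for the duct keratins Krt19 (1924 against 580.2 CPM) and Krt7 (367 against 124 CPM), for Areg (47.9 against 5.95 CPM, with 116 of the 201 UMIs of the 107 cells in 1 cell) and for Cldn18 (71.2 against 35.2 CPM). This division was chosen after its values were seen and carries no test, and most of the cells in it came from 1 mouse. The 8 cells with the most Tff1 belonged to both kinds. The highest, in 2-week mouse 1, held 291 Tff1 UMIs, 33 of Psca, 2 of Tff2 and none of Gkn3 or Muc6. A cell of 2-week mouse 2 held 166 Tff1 UMIs with 2795 of Tff2, 1741 of Gkn3 and 46 of Muc6. The cell with 116 Areg UMIs also held 199 Tff1 UMIs, 627 of Krt19 and none of Muc6. In all, 44 cells with 40 or more Tff1 UMIs supplied 50.2% of the members' Tff1.

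Between 2 and 4 weeks no gene of the members passed the test. Of 9869 genes, 0 (0%) were called by edgeR, 376 had an unadjusted p under 0.05, and DESeq2 called 2 higher and 3 lower. 4930481A15Rik had the smallest p among the genes higher at 4 weeks, at 2.94 and 2.07 CPM at 2 weeks and 22.2 and 21.7 CPM at 4 weeks (log2 fold change 3.498 ± 0.38, edgeR adjusted p = 0.079). Hspb1, a small heat shock protein, had that among the lower genes, at 82.2 and 70.4 CPM against 11.8 and 14.3 CPM (-2.37 ± 0.25, edgeR adjusted p = 0.079). Both genes were chosen by their p-values, so the lack of overlap between the 2 times is no added evidence. How many of all genes had no overlap was not counted. The other mucin/ductal cells had the same order for 4930481A15Rik, at 4.15 and 1.96 CPM against 23.3 and 28.7 CPM, and for Hspb1, at 37.4 and 101 CPM against 12.3 and 24.3 CPM. Without 2-week mouse 1, 72 genes were higher and 72 lower, in a fit where 2-week mouse 2 stood alone and was assumed to vary like the 4-week mice, so that these calls are not evidence of a change with time.

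The effect of time differed between members and other cells for 31 of 12960 genes (0.239%), 24 (0.185%) with a positive and 7 (0.054%) with a negative interaction (edgeR). DESeq2 called 2 and 0. Tuba1a, a tubulin, stood at 1.47 and 17.7 CPM in 2-week members against 17.2 and 31.5 CPM in other cells, and at 17.4 and 21.4 CPM in 4-week members against 6.66 and 6.47 CPM. Members were thus lower than other cells in both 2-week mice and higher in both 4-week mice (interaction 2.58 ± 0.30 on the log2 scale, edgeR adjusted p = 1.57e-07), and this was not called within author cluster 2 (0.48). H2-Aa, H2-Eb1 and Cd74, which encode MHC class II chains and their chaperone, also had positive interactions. For H2-Aa and H2-Eb1 the members were lower in both 2-week mice and higher in both 4-week mice, whereas Cd74 in 4-week mouse 2 was lower in members, at 56.4 against 66.6 CPM. H2-Aa stood at 16.1 and 5.45 CPM in 2-week members against 27.3 and 21.0 CPM, and at 11.8 and 14.3 CPM in 4-week members against 8.41 and 10.4 CPM (2.21 ± 0.33, edgeR adjusted p = 4.73e-05). It was not called without 2-week mouse 2 (1.22, edgeR adjusted p = 0.360). Ms4a1, a B-cell marker, moved in the same direction, with 7.73 CPM in the other cells of 2-week mouse 2 and at most 0.484 CPM in the other cells of the remaining mice. Of the same list of immune and stromal markers, Msln also had a positive interaction (0.88) and Lyz2 a negative one (-1.55 ± 0.36, edgeR adjusted p = 0.0266). B-cell RNA was not tested as a source of the class II transcripts. Ccn2, a matricellular growth factor, went the opposite way, at 27.9 and 77.1 CPM in 2-week members against 35.6 and 131 CPM, and at 0.694 and 33.7 CPM in 4-week members against 5.27 and 109.6 CPM (-1.02 ± 0.21).

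**Figure D5:**
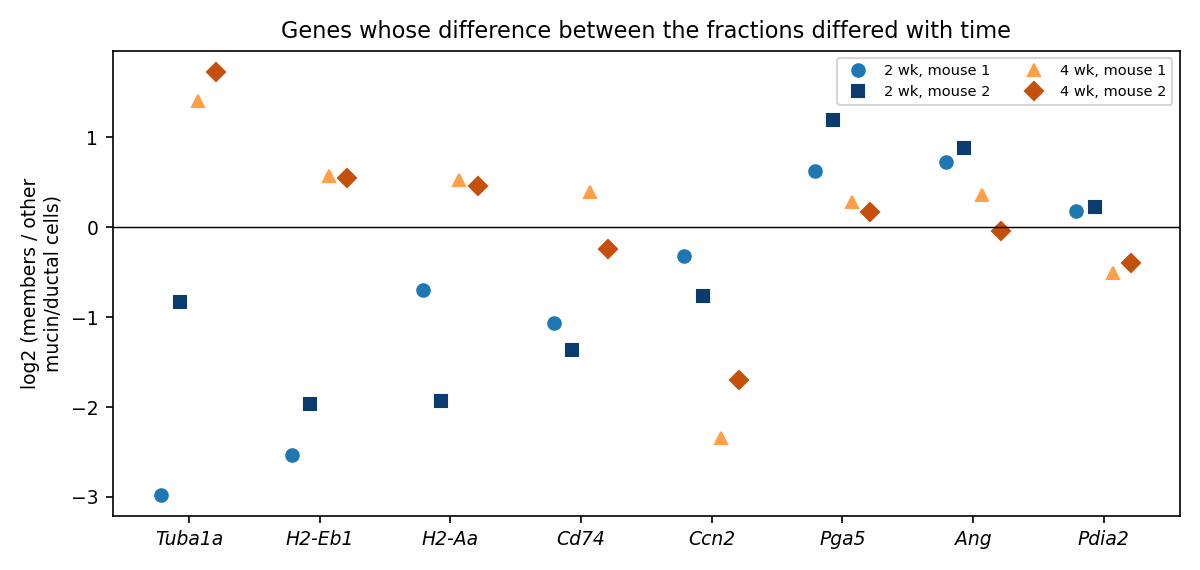
log2 ratio of members to other mucin/ductal cells (vertical axis, 0.5 UMI added to each sum) in each mouse for the 8 genes named for the interaction of fraction and time. The 2-week symbols lie below the 4-week symbols for the first 4 genes and above them for the last 4, as the choice of genes required.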

How the data were processed

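The authors deposited whole-number UMI counts per gene and cell for the sorted EYFP+ cells, a merged table of all cells, and a table of cluster numbers and cell type names. The submitters' processing notes name Cell Ranger 4.0.0, Seurat 3.2.3 and the mm10 build. Doublet removal is not given in the sources used here, and no doublet caller was run. From the deposited counts, UMIs were summed per mouse and fraction. Sums were tested with edgeR 4.0.16 (quasi-likelihood, robust, TMM, filterByExpr) in R 4.3.3, with Benjamini-Hochberg adjustment over all genes tested at 0.05. The 4 rule genes were left out. The SE printed with edgeR values is the size of the log2 fold change divided by the square root of its F statistic. Genes with a similar ratio of change to SE can therefore have different p-values. Both fractions come from the same animal and library, so mouse was the block for members against other cells and for the interaction. Members summed to 681334 to 12107312 UMIs per mouse and other cells to 7949740 to 24951865. At least 20 cells per mouse and fraction were required. The members and the 20 gene lists were chosen with earlier results of these data known. Named genes were the 12 largest changes per direction, up to 4 for time and the interaction. They were called genes with a mean of at least 10 CPM in the higher group. For members against other cells, 1 direction in every mouse was required. For the interaction, the differences in both mice of 1 time had to lie beyond those in both mice of the other. With 0 calls, 1 gene per direction was named by its p-value. CPM is not corrected for length. The 2 comparisons planned around Muc5ac-positive cells could not be fitted, because 2, 0, 6 and 1 cells per mouse held Muc5ac. Alternatives were DESeq2 1.42.0, no gene filter, a fit that is not robust, each mouse left out, enzymes left out, 10000 to 40000 UMIs, thinning to 5000 UMIs, a stricter rule (3 Muc5ac UMIs or a sum of 10) and no block. Added after the data were seen were comparison cells with no rule UMI, each author cluster, and a choice on Tff1 or gastrokines alone. The fits were tested on simulated data: of 100 genes changed 4-fold, 90 were recovered for members against other cells (12960 genes simulated), 81 for time (9869) and 26 for the interaction (12960), and of 100 changed 2-fold, 52, 21 and 0. The simulation gave all genes 1 dispersion and every mouse the same gene proportions. The real mice differed more, with Tff2 in members at 21516 to 102417 CPM. These recoveries are therefore not the power of the real comparisons. The values of 1 gene of the interferon and MHC list are not reported here.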

Additional observations from a re-analysis of the deposited data

Results flagged for a closer look

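For 8 genes the difference between the cells that met the rule and the other mucin/ductal cells was not the same at 2 and 4 weeks, by edgeR's interaction test on the log2 scale. It was 2.58 for Tuba1a, 2.56 for H2-Eb1, 2.21 for H2-Aa and 1.30 for Cd74, each with members relatively higher at 4 weeks. It was -1.02 for Ccn2, -0.67 for the pepsinogen Pga5, -0.64 for the ribonuclease Ang and -0.63 for the disulfide isomerase Pdia2, each with members relatively higher at 2 weeks. Of these, Tuba1a was the one that DESeq2 also called. Within author cluster 2 the interaction was not called for Tuba1a, H2-Eb1, H2-Aa, Cd74, Ccn2, Ang or Pdia2.

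Cells of other deposited types, which entered no comparison, also met the rule. In the 3 types with the highest shares over all mice pooled they were 11.51% of ductal-like cells (16 of 139, exact 95% interval 6.72 to 18.0), 8.78% of tuft and enteroendocrine progenitors (18 of 205, 5.29 to 13.5) and 2.35% of the cells between acinar and mucin/ductal (46 of 1955, 1.73 to 3.13). None of 1312 untyped lymphocyte-type cells did, which allows up to 0.281%, at a median of 4043.5 UMIs against 28570, 18001 and 3674 UMIs in the 3 types. The cells of these types that met the rule were deeper, at medians of 46740, 39921.5 and 47101 UMIs. 2-week mouse 2 held 14 of the 16, all 18 and 34 of the 46 cells, and 142 of the 205 progenitors came from it. The rule was also met by 12 of 1280 tuft cells, which held 10 Muc5ac UMIs, as many as all mucin/ductal cells, and by 6 of 3698 acinar, 3 of 894 proliferating acinar and 2 of 1208 enteroendocrine cells. More Muc5ac UMIs, 15, lay in the cells between acinar and mucin/ductal, 12 of them in 2-week mouse 1.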

How the results depend on the processing

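For members against other mucin/ductal cells, 52 genes were higher and 71 lower as reported. The counts higher and lower were 108 and 82 in cells of 10000 to 40000 UMIs, 17 and 8 in thinned cells, 107 and 162 with no gene filter, 26 and 35 under the stricter rule, and 37 and 23 in DESeq2. Without the mouse as a replicate block both were 0. They were 104 and 113 against cells with no rule UMI, 9 and 11 in author cluster 1, 36 and 20 in cluster 2, 29 and 39 for cells chosen on Tff1 alone, and 244 and 180 for those chosen on gastrokines alone. Leaving out each mouse gave 29 to 85 higher and 35 to 85 lower. The highest were without 2-week mouse 1. The lowest were without 4-week mouse 1, and of its 64 calls 51 were among the 123 reported. Without 2-week mouse 2, 41 and 36 were called, 49 of them shared. The cause was not tested, apart from the smaller number of mice in these settings.

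Between times, 2 and 3 genes were called in DESeq2, 73 and 101 in cluster 2, 90 and 131 in cells of 10000 to 40000 UMIs, and 29 and 40 with no gene filter. The cluster 2 and depth settings also lost 2-week mouse 1, so their counts here and for the interaction come from 3 mice and cannot be told apart from that loss. Leaving out each mouse gave 0 to 72 in each direction, with both highest values without 2-week mouse 1. In each fit with 1 mouse at a time point, for time and for the interaction, that mouse is assumed to vary like those of the other time. For the interaction, 2 and 0 were called in DESeq2 and 37 and 11 with no gene filter. The lower count was 30 in cluster 2 and 23 in cells of 10000 to 40000 UMIs. Leaving out each mouse gave 18 to 57 higher and 5 to 73 lower, with 52 and 73 without 2-week mouse 2 and 57 and 32 without 2-week mouse 1. The difference in share, -7.90 points, ranged from -17.1 to 1.30 points when each mouse was left out.

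Many genes named or called in a list for members against other cells lost the call without a change of sign. Lost and kept calls were 36 and 7 in thinned cells, 39 and 15 under the stricter rule and 42 and 7 in cluster 1. They were 33 and 10 in cluster 2, 23 and 30 in cells of 10000 to 40000 UMIs, and 0 and 54 with no gene filter. Reversed values among genes named were Cp at -0.13 in cells of 10000 to 40000 UMIs, and Prss2 at 0.22, Ctrl at 0.028, Cela3b at 0.019 and Pnliprp2 at -0.41 in thinned cells. In cluster 1 they were Cthrc1 at -0.15 and Creb3l1 at -0.033, and in cluster 2 Bst2 at 0.067, with Gnat3 at -5.15 and Msln at -0.15 for the interaction. Gnat3 was also reversed in cells of 10000 to 40000 UMIs, at -3.27. Leaving out each mouse moved the interaction from -4.83 to 6.51 for Gnat3 and from -0.023 to 8.66 for Krt20, both lowest without 4-week mouse 2. In cells chosen on gastrokines they were Wfdc18 at 0.064, Reg1 at -0.15, Ube2c at 0.20 and Cxcl2 at 2.38. Thinned cells, the stricter rule and cluster 1 could not be fitted for time or the interaction, since too few mice kept 20 cells. The 2 times could not be paired with each other because their mice are different animals. With 2 mice per time, 21 members in 2-week mouse 1 limit what can be detected.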
